A study of Mus musculus with 3 samples.

Results

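Immature neutrophils that carry specific granule transcripts were picked out of a mouse total bone marrow library, where they made up 772 of 4290 cells (18.0%, exact Clopper-Pearson 95% interval 16.9 to 19.2). A cell was a member if S100a8 and S100a9, the subunits of calprotectin, took at least 10% of its UMIs (unique molecular identifiers, 1 for each captured mRNA molecule), if Camp, Ngp and Ltf together took at least 3%, and if it held fewer than 5 UMIs of Fcnb. Cells entered with a minimum of 200 genes and no more than 10% of UMIs from the mitochondrial genome, which kept 8824 cells in the whole series. The series holds 3 single-cell 3' RNA libraries that differ in the sorting gate: LSK, LK and TBM. TBM is total bone marrow, and LK and LSK are names in common use for progenitor gates. Leg bones, hips and spines were the source of the marrow. The protocol text is the same for all 3 samples and speaks of enriching lineage-negative cells with antibodies that include CD11b, Ly-6G and Ly-6C, antigens of neutrophils, without saying which gates this preceded. Genotype, treatment, strain, sex, age and the number of mice are not given in the labels. Each gate is 1 library, so the values below describe cells of 1 TBM library, have no replicate check and carry no test; intervals are 95% intervals for counting error only. No LK cell among 3464 and no LSK cell among 1070 met the rule. These counts of 0 allow up to about 0.0866% and 0.280% of cells. The limit is 3 over the number of cells, an approximate 1-sided 95% limit.

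Neutrophils build their granules in waves as they mature in the marrow. Primary granule enzymes such as elastase and myeloperoxidase are transcribed first, in promyelocytes; specific granule proteins follow in myelocytes and metamyelocytes, together with exit from the cell cycle; gelatinase granule proteins, chemotactic receptors and inflammatory genes follow in band and segmented cells. Camp encodes the cathelicidin precursor of an antimicrobial peptide, Ltf encodes lactoferrin, which binds iron, and Ngp encodes neutrophilic granule protein, a cystatin-like protein. The transcription factor C/EBP epsilon, product of Cebpe, is required for specific granules, and Ly6g encodes a surface antigen by which mouse neutrophils are sorted.

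The 3 genes whose summed share chose the cells lie on chromosome 9 within 1.20 Mb of each other (build mm10, which is GRCm38, GENCODE M21 annotation). Camp (ENSMUSG00000038357) spans chr9:109847379-109849617 on the minus strand, Ngp (ENSMUSG00000032484) spans chr9:110419747-110423012 on the plus strand, and Ltf (ENSMUSG00000032496) spans chr9:111019271-111042767 on the plus strand; all are protein coding. Their upstream sequences are shown because these genes chose the cells, and those of Chil3 and Mmp8 because these genes ran in opposite directions within the population. The sequences are RefSeq's (GRCm38.p6), 5' to 3' on the gene's strand, up to 250 bases before the RefSeq start, without bases that GENCODE places inside the gene: chr9:109849618-109849706 for Camp, chr9:110419558-110419746 for Ngp, chr9:111019042-111019270 for Ltf, chr3:106167565-106167814 on the minus strand for Chil3 and chr9:7558179-7558428 on the plus strand for Mmp8. Capitals mark matches on either strand to a C/EBP motif (TTNNGNAA) or a PU.1 motif (GAGGAA).
Camp: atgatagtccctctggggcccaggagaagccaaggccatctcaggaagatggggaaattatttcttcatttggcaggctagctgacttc
Ngp: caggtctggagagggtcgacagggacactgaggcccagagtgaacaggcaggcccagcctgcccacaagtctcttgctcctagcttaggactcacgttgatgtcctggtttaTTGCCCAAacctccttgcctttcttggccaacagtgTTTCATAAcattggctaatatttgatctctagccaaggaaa
Ltf: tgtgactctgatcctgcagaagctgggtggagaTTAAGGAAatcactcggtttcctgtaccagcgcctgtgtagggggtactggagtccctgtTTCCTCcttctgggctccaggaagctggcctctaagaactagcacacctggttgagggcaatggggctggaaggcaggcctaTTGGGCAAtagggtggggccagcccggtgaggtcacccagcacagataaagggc
Chil3: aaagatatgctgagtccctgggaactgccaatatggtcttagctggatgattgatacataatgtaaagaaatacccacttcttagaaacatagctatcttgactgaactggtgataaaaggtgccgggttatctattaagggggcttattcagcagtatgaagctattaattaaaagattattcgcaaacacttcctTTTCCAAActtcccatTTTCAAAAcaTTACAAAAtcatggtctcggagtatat
Mmp8: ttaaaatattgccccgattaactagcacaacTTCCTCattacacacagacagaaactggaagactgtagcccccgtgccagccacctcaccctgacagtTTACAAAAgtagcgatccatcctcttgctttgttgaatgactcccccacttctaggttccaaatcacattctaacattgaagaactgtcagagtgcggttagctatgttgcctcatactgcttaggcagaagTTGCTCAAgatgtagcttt
In the full 250 bases before the RefSeq start, the C/EBP letters occurred 3 times for Ngp (the 1 nearest the start is not printed), 2 times for Ltf, 3 times for Chil3, 2 times for Mmp8 and 0 times for Camp. The PU.1 letters occurred 1 time each for Ltf and Mmp8. Windows of that length held the C/EBP letters in 36.8% and the PU.1 letters in 23.3% of all 32851 promoters in the table, so a match is common and is no sign of a bound site. Matches to the different motifs did not overlap in these windows.

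The TBM library held 4317 barcodes, against 3984 cells that the labels state, and 22522054 UMIs in the cells kept (median 3409 per cell). The members held 3782711 of these UMIs. The median member held 4200 UMIs from 942.5 genes, and Scrublet called 18 of them doublets (2.33%). They were compared with 555 low-granule neutrophils, TBM cells with the same calprotectin share but under 3% of Camp, Ngp and Ltf (median 1610 UMIs, 1069582 in all), and with 267 Fcnb-high precursors, which met both shares but held at least 5 Fcnb UMIs (median 11611 UMIs). Fcnb encodes ficolin-B, and because its limit is a raw UMI count, deeper cells pass into the precursors more easily. TBM shared 25 cell barcodes with LK (5 of them members) and 6 with LSK (2 members), where chance reuse of barcodes gives 20.2 and 6.23.

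The population's label was checked against Ly6g, the 1 marker the rule did not use. Ly6g had 969 CPM (UMIs of the gene per 1000000 UMIs of the group) in the members, 601 in low-granule neutrophils and 274 in Fcnb-high precursors. With every cell thinned to 1000 UMIs, 55.4% of 765 members (51.8 to 59.0) held a Ly6g UMI, against 38.2% of low-granule cells, 20.97% of precursors and 0.519% of B-lineage cells, which should lack it; without thinning the members' share was 87.4% and that of B-lineage cells 2.06%. The members held 68.9% of all Ly6g UMIs of the library. Markers of other cell types were low: 38 members (4.92%) held 10 or more UMIs of another type's marker list (100 or more for erythroblasts), 18 of them by the B-lineage list and 15 by the monocyte list, against 23 of the low-granule cells (4.14%). The progenitor and megakaryocyte lists were left out of this count, and 0 members held 10 UMIs of either. The eosinophil list was highest in the members, at 105 CPM against 46.7 in low-granule cells and 60.8 in precursors, and 0 members held 10 of its UMIs. The summed monocyte list (10 genes, all detected) stood at 147 CPM in the members and 282 CPM in the low-granule cells. The dendritic cell markers Siglech, Clec9a, Xcr1 and Zbtb46 and the T and NK cell markers Cd4, Cd8a, Klrd1 and Ncr1 were at 0 UMIs in the members, while the whole lists summed to 46 UMIs (12.2 CPM, 8 genes) for dendritic cells and 133 UMIs (35.2 CPM, 10 genes) for T and NK cells. These lists stood at 63.6 and 99.1 CPM in the low-granule cells and at 28.8 and 158.7 CPM in the precursors. Hbb-bs, a globin of red cells, stood at 10.7 UMIs per member cell, 11.3 per low-granule cell and 13.1 per B-lineage cell. It stood at 32.4 per precursor cell, whose median depth was also higher. A single cell held 26.1% of these UMIs in the members, 23.1% in low-granule cells, 45.2% in precursors and 16.6% in B-lineage cells. In CPM the erythroblast list stood at 4674 in the members, 14086 in the low-granule cells and 5859 in the precursors, and the B-lineage list at 345, 543 and 199.9; their part in the results was not tested.

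The rule genes filled much of the members' mRNA. S100a8 took 21.6% and S100a9 13.7% of all their UMIs, Camp 6.09%, Ngp 4.66% and Ltf 0.786%. Over single cells, Camp ranged from 0.620% to 11.7% of a cell's UMIs with a median of 5.80%, Ngp from 0.0379% to 10.8% with a median of 3.98%, and Ltf from 0 in 5 cells to 2.17% with a median of 0.727%. The spread is broad. Of the members' granule UMIs, Camp was 52.8%, Ngp 40.4% and Ltf 6.81%. The members held 48.7% of the library's Camp UMIs, 46.2% of its Ngp UMIs and 56.2% of its Ltf UMIs; nearly all others lay in the Fcnb-high precursors (47.6%, 50.4% and 40.7%). These values describe the choice of cells and support nothing.

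**Figure D1:**
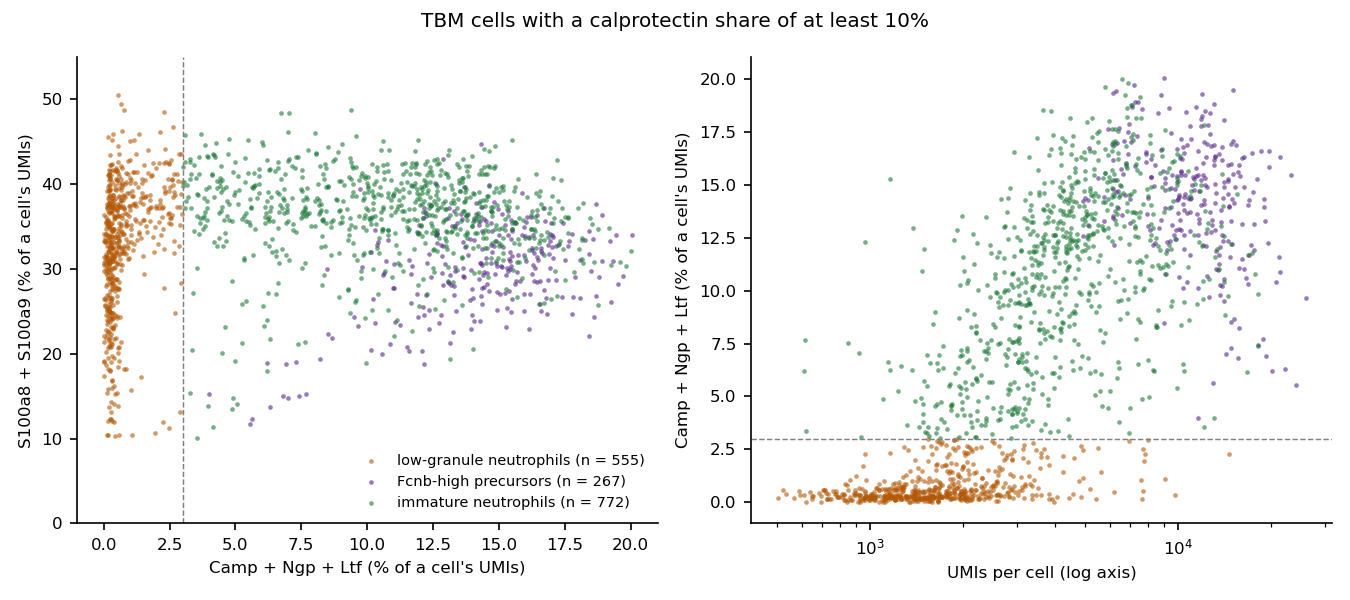
Left, the calprotectin share (S100a8 and S100a9) against the granule share (Camp, Ngp and Ltf) of each cell's UMIs in percent; right, the granule share against UMIs per cell on a log axis. Each point is 1 TBM cell, the dashed line is the 3% limit, and the members run upward from 3.03% granule share with a median of 11.1%.

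No gap in the data separates the members at the granule limit. Just inside it, 46 cells had a share of 3 to 4%, and just outside, 61 cells had 2 to 3%; Lcn2 stood at 6854 and 5309 CPM, Chil3 at 585 and 279 CPM, and Cxcr2 at 159 and 262 CPM in these bands. At the Fcnb limit, 28 members held 4 UMIs and 27 precursors held 5, with medians of 7785.5 and 10372 UMIs per cell. At the calprotectin limit, 1 member lay at 10 to 11% and 0 cells at 9 to 10%.

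Against low-granule neutrophils, 953 of 6916 measured genes (13.8%) were at least 2-fold higher in the members and 836 (12.1%) at least 2-fold lower, measured meaning at least 20 UMIs over both groups. The median gene had a log2 ratio of -0.0042. Because the rule genes take 46.9% of the members' UMIs and 32.8% of the low-granule cells', scaling to the UMIs outside them moved the median to 0.33 and the split to 1573 higher and 473 lower. Both groups were chosen on the same cells that are compared, so the ratios are a description.

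Some specific granule transcripts other than the rule genes were higher in the members. Of 14 measured genes of that list (Bpi, the 15th, was at 0 in the members), 6 were at least 2-fold higher, 8 were within 2-fold and 0 were lower, with a median log2 ratio of 0.83. Chil3, a chitinase-like lectin, stood at 4006 CPM against 179 (log2 4.49, 4.28 to 4.70). Lcn2, the siderophore-binding lipocalin-2, stood at 11950 against 3595 CPM (log2 1.73). Cybb, the catalytic subunit of the NADPH oxidase, stood at 931 against 339 CPM (log2 1.46), and Olfm4, olfactomedin-4, at 190 against 65.4 CPM (log2 1.54). The other 2 at least 2-fold higher, named after their values were seen, were Anxa1 (log2 1.29) and Lyz1 (log2 1.05 on 22 and 3 UMIs, -0.68 to 3.44, a close paralog of Lyz2). Mmp8, the neutrophil collagenase, went the other way within 2-fold, with 1050 CPM in the members and 1772 in the low-granule cells (log2 -0.76).

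Over single cells, Chil3 was seen in 79.0% of thinned members, 14.7% of thinned low-granule cells and 7.86% of B-lineage cells. Cebpe was seen in 42.1%, 9.03% and 0.667% of them, and in bulk stood at 655 CPM in the members and 122 in the low-granule cells (log2 2.43, 2.17 to 2.69). Of the 19 measured neutrophil transcription factors, Cebpe and, named after its value was seen, Ets1 (log2 1.20) were at least 2-fold higher and 7 were lower, among them Rara (log2 -2.06), Cebpb (-1.78) and Jund (-1.54).

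Many genes of the later stages were lower in the members. Mmp9, gelatinase B, stood at 822 CPM against 1799 (log2 -1.13), Slc11a1, a metal transporter of phagosomes, at 9.25 against 45.8 CPM (log2 -2.31), and Prok2, a chemokine-like peptide, at 16.7 against 65.4 CPM (log2 -1.97); with Tmem43 (log2 -1.15) they made 4 lower and 0 higher of 9 gelatinase granule genes. The summed gelatinase granule list was not lower, with 4541 CPM in the members and 4469 in the low-granule cells. On UMIs outside the rule genes it stood at 8543 (8416 to 8672) and 6654 (6467 to 6846). Itgam, the CD11b chain, differed little (206 against 169 CPM, log2 0.28, 0.05 to 0.52). Receptors of mature neutrophils were at least 2-fold lower in 14 of 25 and higher in 1, with a median of -1.24. Cxcr2, the chemokine receptor that draws neutrophils out of the marrow, stood at 66.4 against 402 CPM (log2 -2.60), and Csf3r, the G-CSF receptor, at 84.9 against 354 CPM (log2 -2.06). Thinning did not remove the contrast for Cxcr2: a Cxcr2 UMI was seen in 7.45% of members and 37.0% of low-granule cells. The 1 receptor at least 2-fold higher was Ltb4r1, the leukotriene B4 receptor (376 against 128 CPM, log2 1.56), named after its value was seen.

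Inflammatory, interferon and immediate early genes were lower in the members as groups. Of 16 measured inflammatory products 13 were at least 2-fold lower and 0 higher (median log2 -2.30). Retnlg, a resistin-like cytokine, stood at 10000 CPM against 54680 (log2 -2.45), the chemokine gene Ccl6 at 265 against 3906 CPM (log2 -3.88) and Il1b, interleukin-1 beta, at 19.3 against 225 CPM (log2 -3.55). Of 19 interferon-response genes 16 were lower and 0 higher (median -2.15), with Ifitm1 at 22.7 against 417 CPM (log2 -4.20) and Oasl2 at 4.76 against 56.1 CPM (log2 -3.56). Of 16 immediate early genes 9 were lower and 0 higher (median -1.04), with Junb at 424 against 1716 CPM (log2 -2.02) and Dusp1 at 45.5 against 336 CPM (log2 -2.88). Cell dissociation is known to induce immediate early genes; its part in the result was not tested.

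Among genes outside the rule with at least 200 UMIs over both groups, those furthest above the low-granule cells were Zmpste24, the protease that processes prelamin A (113 against 2.80 CPM, log2 5.33 on 426 and 3 UMIs, 3.77 to 7.61), and Orm1, the acute phase protein orosomucoid (181 against 5.61 CPM, log2 5.01). After them came Ffar2, a receptor for short-chain fatty acids (log2 4.55 on 248 and 3 UMIs, 2.98 to 6.83), Chil3, Tmem216 (4.37), Olfml2b (3.59), Pclaf (3.57, and -0.16 with the calprotectin limit at 5%), Inhba (3.50), Selenoo (3.21), Lta4h, which makes leukotriene B4 (236 against 27.1 CPM, log2 3.12), Top2a (3.08) and Cdkn3 (2.64). Furthest below were Jaml, an adhesion molecule (7.14 against 173 CPM, log2 -4.60), Cstdc4, a cystatin family gene (47.1 against 970 CPM, log2 -4.36), Ifitm1, Ccl6, Clec4d (-3.67), Stfa2l1 (-3.66), Gm16556 (-3.65), Il1b, H2-Q10 (-3.40), Srgn, the proteoglycan core of granules (67.4 against 611 CPM, log2 -3.18), Wfdc17 (-3.01) and Elane (-2.99). Stefin, cystatin and Ifitm genes have close relatives, between which reads could have been split.

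Elane, neutrophil elastase, is an exception to read with its source. A single low-granule cell with 14590 UMIs and 39 Fcnb UMIs held 83.3% of that group's Elane UMIs, 75.3% of its Prtn3 UMIs and 71.8% of its Mpo UMIs. Without that cell the log2 ratios were -0.43 for Elane, -0.45 for Prtn3 and -0.47 for Mpo, where they had been -2.99, -2.45 and -2.28, and the primary granule list moved from 1 higher and 5 lower of 10 (median -1.005) to 2 higher and 0 lower (median -0.14). In members and low-granule cells thinned to 1000 UMIs, an Elane UMI was seen in 6.67% and 6.72% of cells, and in B-lineage cells in 3.85%. Serpinb1a, an inhibitor of elastase placed on the primary granule list, was its 1 gene at least 2-fold higher with that cell included (512 against 121 CPM, log2 2.09).

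Against Fcnb-high precursors, 691 of 7990 measured genes (8.65%) were at least 2-fold higher in the members and 1427 (17.9%) at least 2-fold lower, with a median of -0.21. Camp, Ngp and Ltf were near the precursors' level (log2 -0.23, -0.39 and 0.20), as were Lcn2 (11950 against 12302 CPM, log2 -0.04) and Lyz2, lysozyme (13562 against 13292 CPM, log2 0.03). Chil3 was lower, at 4006 against 7974 CPM (log2 -0.99), and Cebpe stood at 655 against 972 CPM (log2 -0.57). Only 2 of 14 specific granule genes were at least 2-fold higher and 0 lower: Mmp8, at 1050 against 59.6 CPM (log2 4.14, 3.93 to 4.36), and Ceacam10, at 158 against 35.2 CPM (log2 2.17). Ly6g was higher too, at 969 against 274 CPM (log2 1.82, 1.72 to 1.93).

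Gelatinase granule genes and receptors were higher in the members than in the precursors. Of 9 gelatinase granule genes 5 were at least 2-fold higher and 0 lower: Mmp9 (822 against 80.5 CPM, log2 3.35), Prok2 (2.91 on 63 and 7 UMIs), Adam8, a sheddase (2.46), Mmp25, a membrane-bound matrix metalloproteinase (2.29), and Slc11a1 (1.87 on 35 and 8 UMIs; thinned to 1000 UMIs per cell it had 6 and 0 UMIs, and with a floor of 3 counts for the precursors its ratio was -0.52). Of 25 receptors 12 were higher and 0 lower, with the formyl peptide receptors Fpr1 (73.8 against 7.60 CPM, log2 3.28) and Fpr2 (314 against 67.8 CPM, log2 2.21) and with Cxcr2 (66.4 against 18.4 CPM, log2 1.85). Of 16 inflammatory products 11 were higher, among them Retnlg (10000 against 1138 CPM, log2 3.14), Stfa2l1 (3.03) and Il1rn, the interleukin-1 receptor antagonist (2.61); the 1 lower was Ccl4, with 1 UMI against 25 (log2 -4.90, -10.26 to -2.29), named after its value was seen. The direction turned with the Fcnb limit: at 10 UMIs Ccl4 had 25 UMIs in the members and 1 in the precursors (log2 3.38), and with Fcnb under 0.05% of UMIs its ratio was 4.29. Interferon-response genes were higher in 8 of 16 and immediate early genes in 8 of 16, with 0 lower in either, for example Ifi27l2a (log2 1.86), Egr1 (1.72) and Junb (1.65). Other genes far above the precursors were Thbs1, thrombospondin-1 (57.6 against 3.48 CPM, log2 4.05), Scrg1 (2.58), Timp2, an inhibitor of metalloproteinases (2.46), S100a6 (4081 against 746 CPM, log2 2.45), Slfn1 (2.44), Hacd4 (2.39) and Gng2 (2.38).

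Primary granule and replication genes were lower in the members than in the precursors. Elane stood at 56.8 against 831 CPM (log2 -3.87, -4.08 to -3.67), Prtn3, proteinase 3, at 25.6 against 340 CPM (log2 -3.73) and Ms4a3, a membrane protein of granulocyte progenitors, at 48.9 against 343 CPM (log2 -2.81); 7 of 10 genes of the list were at least 2-fold lower and 0 higher (median -2.06). S phase genes were lower in all 25 measured (median -2.61), with Lig1, DNA ligase 1, not a list member, at log2 -3.45, Tk1 at -3.35, Mcm5 at -3.29, Mcm6 at -3.13, Tyms at -3.06 and Dut at -2.95. Nucleolar and ribosome assembly genes were lower in 10 of 16 and higher in 1 (median -1.11), and nuclear envelope and chromatin genes in 7 of 16 with 0 higher (median -0.93). Gfi1, a repressor needed for neutrophil commitment, had 23 UMIs in the members and 79 in the precursors (log2 -2.04), while Mxd1, a MYC antagonist, stood at 163 against 51.0 CPM (log2 1.67). Nkg7 (-3.30), Chit1, a chitinase (-2.97), and Gatm, a creatine synthesis enzyme (-2.84), were also far lower. Jchain had the lowest ratio (log2 -5.23), but 1 precursor cell held 97.7% of its UMIs in that group, and without cells that carried another type's markers its ratio was 0.17.

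Other groups are read against all measured genes, of which 8.65% were higher and 17.9% lower than in the precursors, and 13.8% higher and 12.1% lower than in the low-granule cells. Ribosomal protein genes were at least 2-fold lower than in the precursors in 19 of 82 and higher in 1 (median -0.76), and against low-granule cells lower in 1 of 82 (median -0.06). Nuclear respiratory chain genes were within 2-fold of the precursors in all 30 (median -0.36) and at least 2-fold higher than in low-granule cells in 3 (median 0.35). Genes of granule sorting and secretion were lower than in low-granule cells in 6 of 14 (median -0.59), with Snap23, a membrane fusion protein, at log2 -1.93, and 0 of 14 differed 2-fold from the precursors (median 0.22). Nuclear envelope and chromatin genes were higher than in low-granule cells in 6 of 14 and lower in 2 (median 0.62). Of 8 NADPH oxidase genes, 2 were at least 2-fold higher than in low-granule cells, Cybb and the proton channel Hvcn1 (log2 1.42), the latter named after its value was seen. Glycolysis genes had medians of -0.03 and 0.0021, with 2 higher and 2 lower of 19 against low-granule cells.

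**Figure D2:**
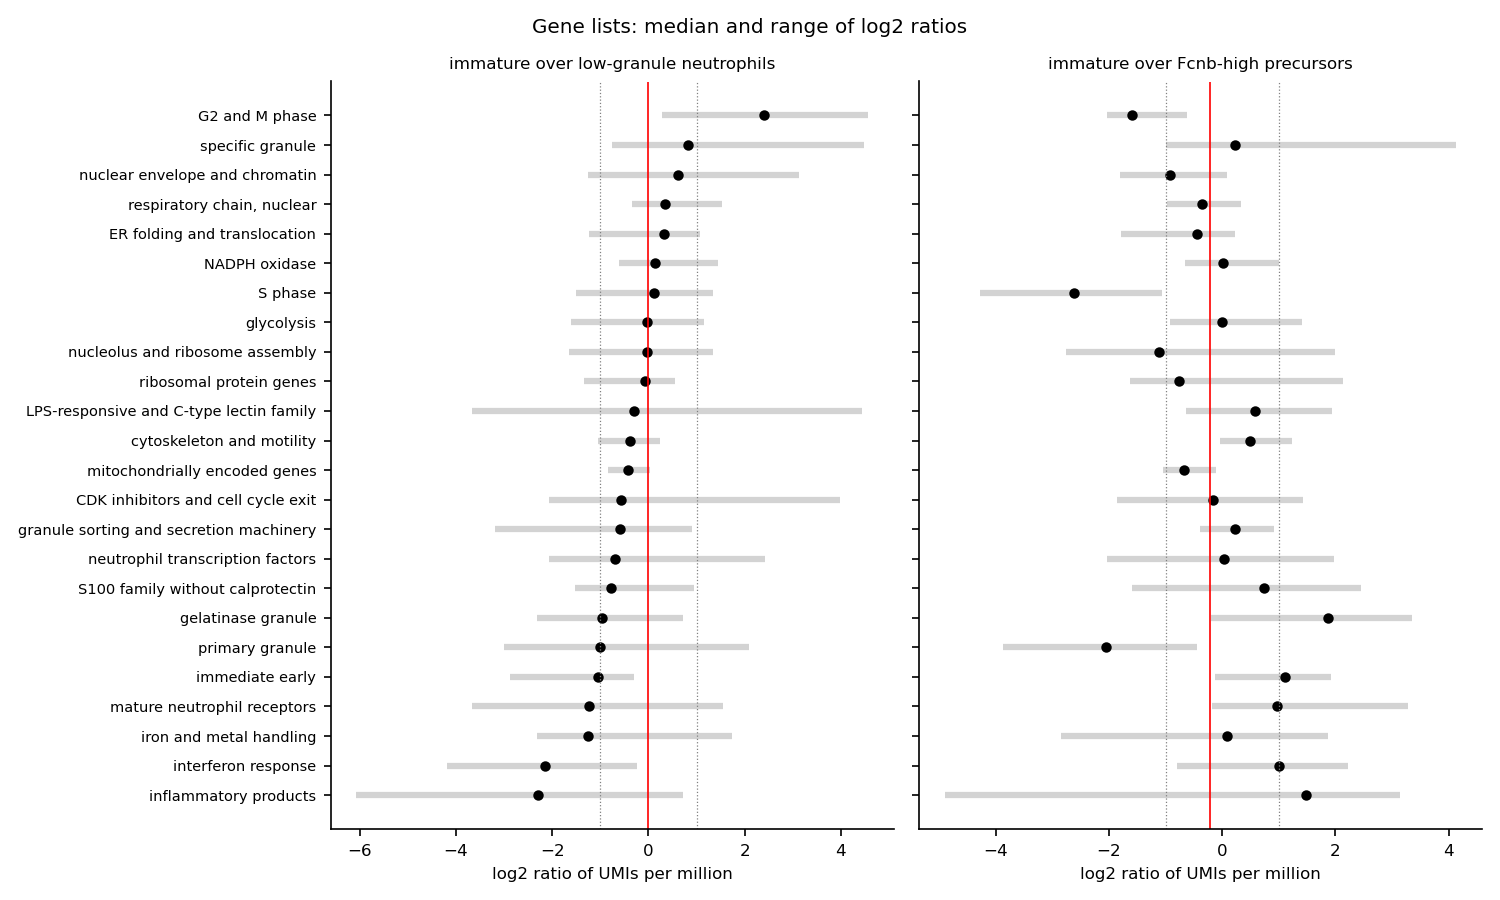
Each row is a gene list; the dot is the median and the grey bar the range of its measured genes' log2 ratios of CPM, members over low-granule neutrophils on the left and members over Fcnb-high precursors on the right. The red line is the median of all measured genes (-0.0042 left, -0.21 right) and dotted lines mark 2-fold; inflammatory products lie at -2.30 left and 1.48 right, S phase genes at 0.11 and -2.61.

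The level of G2 and M phase transcripts in the members lay between those of the other 2 groups. The G2 and M phase list (26 genes) stood at 1009 CPM in the members, 233 in low-granule cells and 3004 in precursors, and 25 of its 26 genes were at least 2-fold higher in the members than in low-granule cells (median log2 2.40) while 25 of 26 were at least 2-fold lower than in the precursors (median -1.60). Top2a stood at 55.3, 6.54 and 190 CPM in members, low-granule cells and precursors, and Mki67 at 39.7, 13.1 and 98.8 CPM. In the members, 79 cells (10.2%, 8.19 to 12.6) held 10 or more UMIs of the list and carried 86.9% of its UMIs, whereas 391 cells held 0. These cells were picked by their UMIs of the list, so the concentration in them is a description; without such cells in either group the list's median against the low-granule cells was -0.17. They were deep cells, with a median of 9121 UMIs against 3933 in the other members. Scrublet called 8 of the 79 doublets, against 10 of the other 693 members; its part in the result was not tested.

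At equal depth the order of the groups stayed as it was. With each cell thinned to 1000 UMIs, 8.24% of members (6.39 to 10.4), 0.840% of low-granule cells (0.229 to 2.14) and 44.9% of precursors (38.9 to 51.1) held 3 or more UMIs of the G2 and M phase list. Within the members, from the same draw, the thinned share was 16.4% where the granule share was 15% or more, 11.4% at 10 to 15%, 1.79% at 5 to 10% and 2.25% at 3 to 5% (18, 39, 4 and 2 cells). It was 2.33% in members with 0 Fcnb UMIs, 18.3% with 1 to 2 and 25.7% with 3 to 4. The intervals of the 2 poorest granule bands overlapped (0.489 to 4.51 and 0.273 to 7.88). S phase transcripts were rarer: 33 members (4.27%) held 10 or more UMIs of that list, against 170 precursors (63.7%). The summed S phase level was 363 CPM in the members and 365 CPM in the low-granule cells, where 1 cell held 13.3% of it. On UMIs outside the rule genes the members stood higher, at 683 (648 to 721) against 543 (490 to 600). Cdkn2c, an inhibitor of the CDK4 and CDK6 kinases, stood at 29.6 CPM in members, 1.87 in low-granule cells (2 UMIs) and 108 in precursors, and the antiproliferative gene Btg1 was lower in members than in low-granule cells (286 against 1193 CPM, log2 -2.06).

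**Figure D3:**
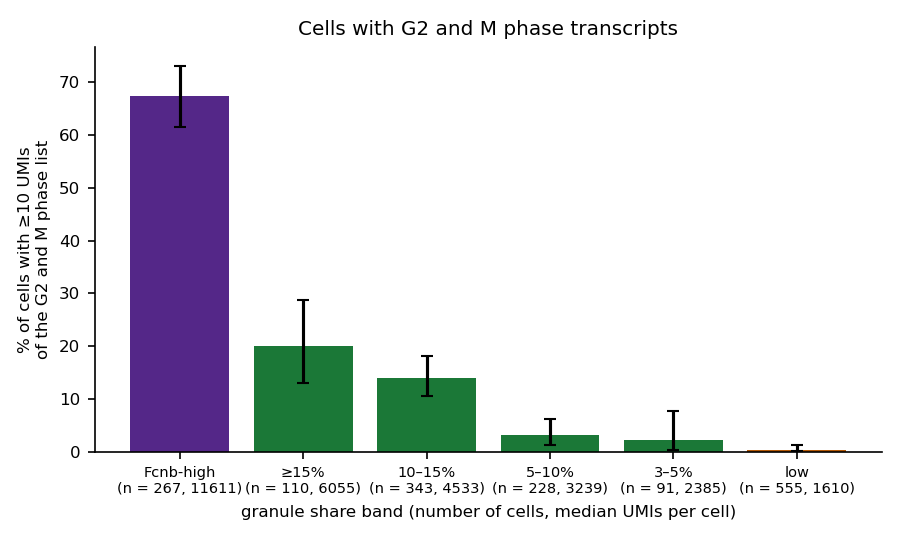
Bars show the percent of cells with 10 or more UMIs of the G2 and M phase list, unthinned, in Fcnb-high precursors, 4 granule share bands of the members and low-granule neutrophils, with exact 95% binomial intervals. The share is 67.4% in the precursors, 22 of 110 cells in the richest member band, 14.0%, 3.07% and 2.20% in the next bands, and 0.360% in low-granule cells, and median UMIs per cell (under each bar) go down in the same order.

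The members were not uniform, and the levels of several genes named above ran with the cell's granule share. Bands were formed at 3 to 5% (91 cells), 5 to 10% (228), 10 to 15% (343) and 15% or more (110), and levels are CPM computed on the UMIs outside the 6 rule genes. From the highest to the lowest band, Chil3 stood at 15068, 8509, 3109 and 1049, Lcn2 at 32629, 24480, 16151 and 10947, and Cebpe at 1762, 1428, 800 and 421. These specific granule genes and their regulator thus had their highest level in the band richest in Camp, Ngp and Ltf and their lowest in the poorest. Orm1 stood at 687, 381, 155 and 5.93 (1 UMI) and Zmpste24 at 408, 224, 127 and 23.7, in the same order.

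Several other genes ran in the opposite order, among them Mmp8 of the specific granule list. The summed gelatinase granule list, which holds Mmp9, did not. It stood at 8934, 8605, 8468 and 7652 CPM from the highest to the lowest band. Retnlg stood at 2175, 8584, 34188 and 61835 CPM from the highest to the lowest band, against 1997 in the precursors and 81416 in the low-granule cells. Mmp8 stood at 467, 1493, 3247 and 3698, Mmp9 at 664, 1191, 2408 and 2614, and S100a6 at 3199, 6082, 11346 and 14100. Mmp8 was higher in the 2 poorest bands than in the low-granule cells (2638) and so was highest inside the population. Ccl6 reached 1102 and Cxcr2 196 in the poorest band, well below the low-granule cells (5816 and 599), and Il1b was at 0 UMIs in the richest band (up to 10.98 CPM) and 53.3 in the poorest.

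**Figure D4:**
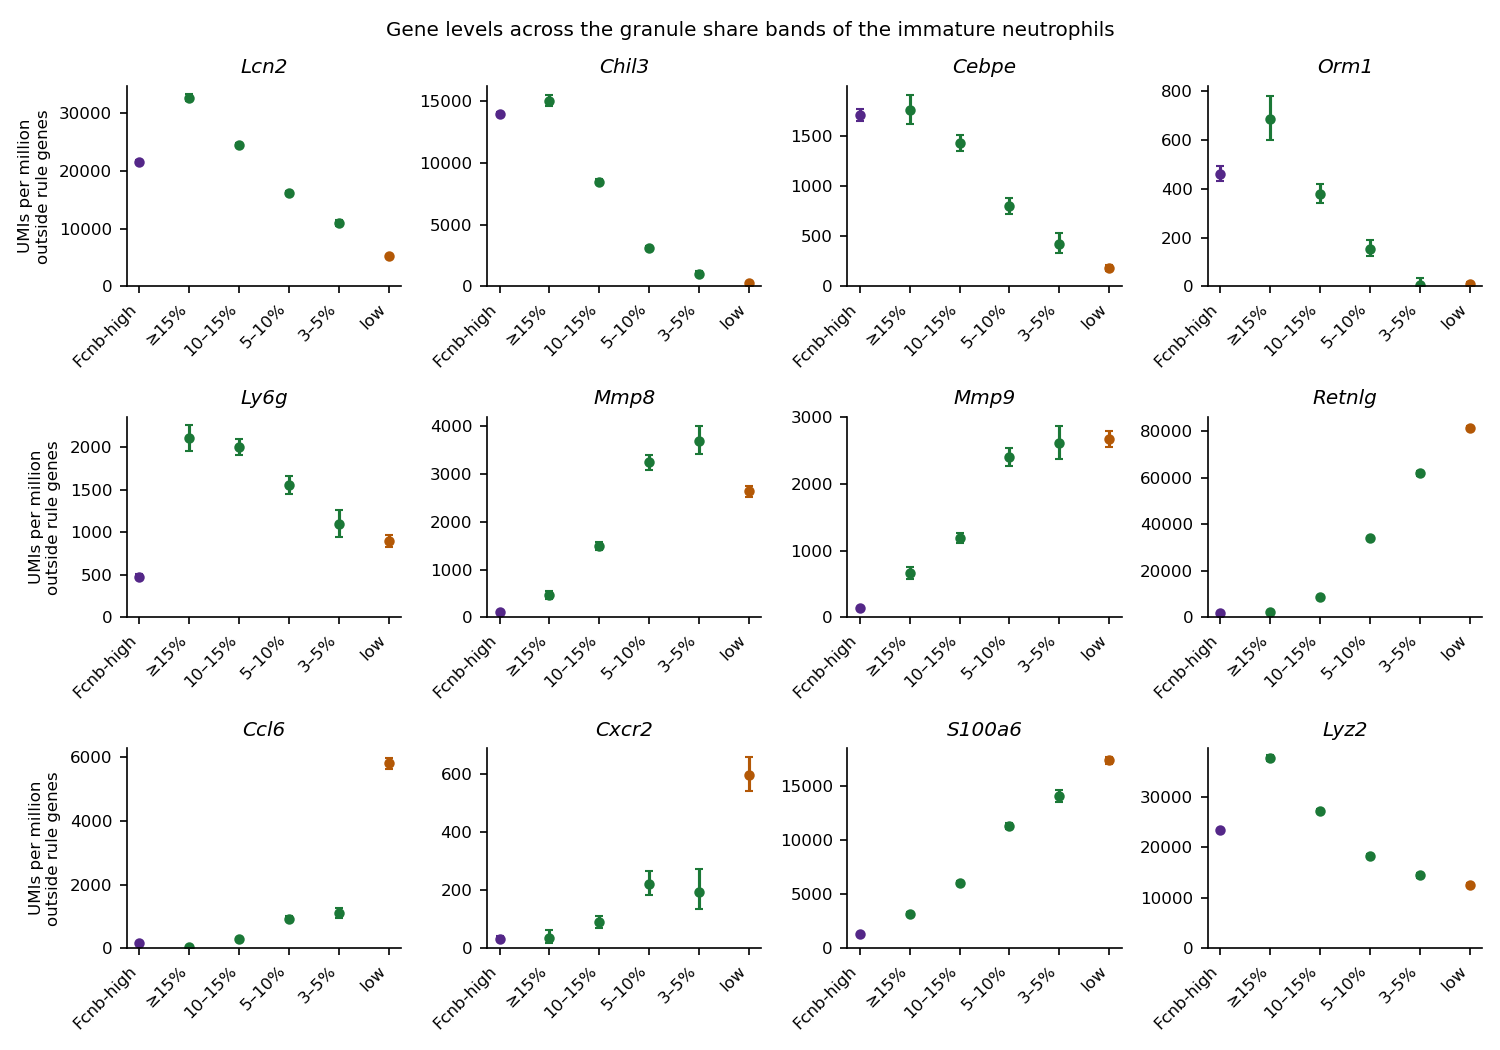
Levels of 12 genes in CPM on the UMIs outside the 6 rule genes (linear axes from 0) in Fcnb-high precursors (purple), the 4 granule share bands of the members (green) and low-granule neutrophils (orange); bars are exact 95% Poisson intervals. Lcn2, Chil3, Cebpe and Lyz2 go down from the richest band to the low-granule cells, Retnlg, Mmp9 and S100a6 go up, and Ly6g is highest in the richest bands (2104 and 2001) and lowest in the precursors (480).

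Depth ran along the same bands, with medians of 6055, 4533, 3239 and 2385 UMIs per cell from the richest to the poorest. Among the 256 members of middle depth (3340 to 5288 UMIs), 12 of 13 genes examined kept a single order over the bands, and the other was Ly6g. Chil3 stood at 11709, 6701, 3008 and 735 CPM, Retnlg at 2252, 9099, 40318 and 68644, and Mmp8 at 556, 2083, 3872 and 4959, in 35, 151, 61 and 9 cells with medians between 3776 and 4503 UMIs. Ly6g stood at 2361, 2868, 2058 and 1102 CPM there. Over all genes, 1346 had at least 200 UMIs in the members and were not rule genes; 115 of them (8.54%) were at least 2-fold higher in the poorest than in the richest band and 204 (15.2%) at least 2-fold lower. The poorest band also held 1 cell with 26.1% of all Hbb-bs UMIs of the members, and Hbb-bs stood at 19446 CPM there against 2980, 2682 and 2345 in the 5 to 10%, 10 to 15% and 15% or more bands; its part in the counts was not tested.

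The proportions of the rule genes to each other are given as a description. Ltf made up 7.94% of the granule UMIs in the poorest band and 6.66% in the richest, 5.14% in low-granule cells and 4.91% in precursors; Ngp made up 38.3% and 44.6% in the poorest and richest bands. S100a8 exceeded S100a9 by 1.54 to 1.59 times in all 4 bands, 1.56 times in low-granule cells and 1.49 times in precursors. Low-granule cells held 8.27 Camp and 8.41 Ngp UMIs per cell, beside 2.05 and 1.77 in B-lineage cells, which should lack these transcripts.

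Few genes were highest in the members themselves. Of 2685 genes with at least 200 UMIs over the 3 groups, 4 (0.149%) were at least 2-fold higher in the members than in both other groups, 8 (0.298%) were at least 2-fold lower than in both, 103 (3.84%) went up at least 2-fold at both steps from precursors through members to low-granule cells, and 116 (4.32%) went down at both. The 4 were AA467197 (177 CPM in precursors, 631 in members, 121 in low-granule cells), Trp53inp2, an autophagy regulator (14.6, 49.2 and 14.0 CPM), Ifitm6 (1597, 3891 and 1896 CPM) and Ear2, a ribonuclease gene also used as an eosinophil marker (47.2, 96.0 and 34.6 CPM). Of the 8 lowest in the members, 6 rest on the single low-granule cell described above: Elane, Mpo, Prtn3, Ctsg, Gstm1 and Nkg7, of whose low-granule UMIs that cell held between 54.5% (Gstm1) and 83.3% (Elane). Without it only 2 were still at least 2-fold lower than in the low-granule cells, Lmnb1, which encodes lamin B1 (log2 -1.06), and the histone gene Hist1h4i (-1.36). These genes were named after their values were seen.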

How the data were processed

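Single-cell RNA was measured in 3 mouse bone marrow libraries (10x Genomics 3' v2 kit, Illumina NovaSeq, per the labels' protocols). Values are raw counts of UMIs for each gene in each barcode, as deposited. Cell Ranger 4.0.0 and mm10 come from the submitters' processing notes. No source used here gives the annotation release or how cells were called. Counts were read with Python 3.11.15, numpy 2.4.6, scipy 1.17.1 and pandas 2.3.3, and figures drawn with matplotlib 3.10.9. Scrublet in scanpy 1.11.5 called 73 of 4290 TBM cells doublets; they stayed in, and leaving them out was an alternative. Free RNA was not corrected.

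The members and gene lists were chosen with earlier results of these data known. UMIs were summed over cells and scaled to counts per 1000000 (CPM). Levels have exact Poisson intervals, ratios conditional binomial ones and shares Clopper-Pearson ones, at 95% and for counting error only. The limits for the 0 cells of LK and LSK are instead 3 over the number of cells. Ratios with 0 UMIs on 1 side were set to a floor of 3 counts. Named genes were the 12 largest log2 ratios each way with at least 200 UMIs over both groups (without rule, mitochondrially encoded, ribosomal protein, receptor segment, globin and sex-linked genes), up to 4 members of each list at least 2-fold different with at least 50 UMIs, and fixed neutrophil genes. B-lineage cells were cells with at least 5 UMIs of the B-lineage list and under 3% calprotectin. Thinning drew 1000 UMIs per cell; 7 members, 79 low-granule cells, 0 precursors and 8 B-lineage cells were shallower. The ratio code was tested on simulated data. LK and LSK served to apply the cell limits and the rule and to count barcodes shared with TBM. UMIs of the rule genes, Ly6g, Lcn2 and Chil3 were also counted there.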

Additional observations from a re-analysis of the deposited data

Results flagged for a closer look

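The rule genes and close markers of the population had more UMIs in the LK library than a count of 0 allows. In LSK this held for all of them but Fcnb (3 UMIs) and Ly6g (0 UMIs). No cell of either library met the rule. In LK, S100a8 had 1796 UMIs, S100a9 149, Camp 63, Ngp 57, Ltf 5, Fcnb 157, Ly6g 5, Lcn2 561 and Chil3 24. In LSK, S100a8 had 62 UMIs, S100a9 60, Camp 35, Ngp 35, Ltf 7, Lcn2 10 and Chil3 6. Camp stood at 1.26 CPM in LK and 2.94 CPM in LSK against 20997 CPM in TBM.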

How the results depend on the processing

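With 1 library, the intervals cover counting error only and no replicate could be left out. Variation between mice or between libraries was not measured. No paired analysis was possible because each gate is 1 library and the groups compared are all cells of the TBM library. The members' share (18.0%) was 19.4% and 15.9% at granule limits of 2% and 5%. It was 16.3% and 20.7% at Fcnb limits of 3 and 10 UMIs. Without members with 10 or more G2 and M phase UMIs the share was 16.2% (693 of 4290). Such cells stayed among the 4290 TBM cells, so this value is lower by construction. Against low-granule cells (953 higher, 836 lower), 428 were higher at a calprotectin limit of 5%, 1573 higher and 473 lower on UMIs outside the rule genes, 3944 lower with at least 1 UMI, 250 and 352 with at least 100 UMIs, 389 and 500 in thinned cells, and 614 higher without the G2 and M phase cells. Against precursors (691 higher, 1427 lower), 1088 were higher with size factors, 1871 and 3104 differed with at least 1 UMI, 258 and 568 with at least 100 UMIs, 416 and 529 in thinned cells, and 742 were lower without the G2 and M phase cells. The limits on UMIs and the thinning change how many genes are measured; for the other settings the cause was not tested. Of 150 named ratios at least 2-fold, those that changed sign were, against low-granule cells, Fcnb (-1.08) and Pclaf (-0.16) at a calprotectin limit of 5%, and Mki67 (-0.73) and H2afx (-0.46) without the G2 and M phase cells; against precursors, Jchain (0.20 at a calprotectin limit of 20%, 0.17 without cells with another type's markers), Ccl4 (3.38 at an Fcnb limit of 10 UMIs, 4.29 at Fcnb under 0.05% of UMIs), Slc11a1 (-0.52 in thinned cells, where it had 6 and 0 UMIs) and Plk1 (1.05 without the G2 and M phase cells). Of 14 list medians checked that were at least 2-fold, those that changed sign were primary granule (0.094 at a calprotectin limit of 20%) and G2 and M phase (-0.17 without those cells), both against low-granule cells. Smaller medians were not screened for a change of sign. On UMIs outside the rule genes, against low-granule cells, the glycolysis median went from -0.03 to 0.31. That of ribosomal protein genes went from -0.06 to 0.28. Leaving out the Fcnb-rich low-granule cell, cells with another type's markers or the G2 and M phase cells, and the Fcnb share, were chosen after seeing the data.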
